A study of Homo sapiens with 8 samples.

Results

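MDH1, LDHB, MTCH2 and AGO1 are human genes for which ribosomes have been reported to read through a UGA stop codon and add a C-terminal extension to the protein. They were chosen for that published property, not for their values here, although earlier results of these data were known by then. From each, 1 transcript was taken, 4 of the 82586 transcripts in the tables. LDHB was ENST00000350669 (gene on chromosome 12, 21635342 to 21657842), MDH1 was ENST00000233114 (chromosome 2, 63588963 to 63607197), MTCH2 was ENST00000302503 (chromosome 11, 47604317 to 47642559) and AGO1 was ENST00000373204 (chromosome 1, 35869761 to 35930532), with RefSeq gene positions on GRCh38, the assembly that hg38 names. Ribosome profiling, which sequences the mRNA fragments that ribosomes shield from nuclease, was run on 8 libraries in 4 groups of 2. The groups were transgenic cells given 1 mM NAEK, transgenic cells without NAEK, HEK293T cells given 1 mM NAEK, and HEK293T cells without NAEK. HEK293T is a human embryonic kidney line with the SV40 large T antigen, and the transgenic cells are HEK293T with a stable transfection of the Mb pyltRNA, a tRNA of the pyrrolysine system. The label names only this tRNA, while the tables also hold entries for a pyrrolysyl-tRNA synthetase and for GFP39, a GFP reporter. The labels say neither whether the transgenic line is 1 clone nor whether replicates came from separate cultures. The spread behind every p-value is that between libraries and may be technical.

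Translation normally ends when a release factor recognises a stop codon, and in readthrough a tRNA is accepted there instead and the ribosome goes on in frame to the next stop codon. LDHB, a subunit of lactate dehydrogenase, and MDH1, the cytosolic malate dehydrogenase, are known for extensions that end in a peroxisomal targeting signal and bring part of each enzyme into peroxisomes. The pyrrolysine tRNA, charged by its synthetase with a supplied amino acid such as the azide-bearing lysine derivative NAEK, reads UAG (amber) stop codons, whereas the stop codons of the 4 genes are of the UGA kind. The comparisons therefore ask whether footprints after these UGA stops differ between transgenic and HEK293T cells, and with and without NAEK.

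For each transcript the tables give RPKM, a read density scaled to the length of a region and to library size, for the coding region and a first and second extended region. The extended regions were taken as the stretches after the stop codon and after the next one, whose definition by the authors is not given here. Libraries held 12923243 to 20569590 reads, of which 89.0 to 89.1% lay in coding regions, 1.29 to 1.48% in first extended and 1.01 to 1.15% in second extended regions. As a check of the labels, the amber reporter GFP39 had 6622 ± 506 and 3713 ± 68.4 coding RPKM in transgenic cells with and without NAEK, against 8.46 ± 0.447 and 16.0 ± 8.12 RPKM in HEK293T cells with and without NAEK (SD, n = 2 each).

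Region lengths recovered from the values set what each gene can show. The first extended region of LDHB was 21 nt or 7 codons, that of MTCH2 33 nt or 11 codons, that of MDH1 57 nt or 19 codons, and that of AGO1 102 nt or 34 codons. The second extended regions were 39 nt in LDHB, 75 nt in MTCH2 and 45 nt in MDH1, and the second region of AGO1 held 0 reads, so its length could not be recovered. The AGO1 length rests on 5 reads and is a shortest fit, which the true length could exceed. Coding regions were 1005 nt in both LDHB and MDH1, 912 nt in MTCH2 and 2574 nt in AGO1.

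LDHB was by far the most densely translated of the genes. Its mean coding density over the 8 libraries was 981 ± 70.7 RPKM, and 91 of 36276 expressed protein-coding transcripts (0.251%) were at or above it. MDH1 averaged 119.7 ± 7.15 RPKM (4.16% at or above) and MTCH2 65.8 ± 3.13 RPKM (7.52% at or above). AGO1, an Argonaute protein that carries microRNAs to their targets, averaged 6.10 ± 0.637 RPKM, with 49.1% of transcripts at or above it. All pairs of neighbours in this order were separated by far more than the SD over libraries.

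Coding density of the genes varied little with line or treatment. LDHB had 1072 and 999 RPKM in transgenic cells with NAEK and 1090 and 974 RPKM without it, against 936 and 919 RPKM in HEK293T cells with NAEK and 970 and 889 RPKM without it. All 4 transgenic libraries were thus above all 4 HEK293T libraries, with means of 1034 ± 55.9 and 929 ± 33.8 RPKM (exact two-sided permutation p = 0.0286, the smallest that 4 against 4 libraries can give). Among all coding regions tested, 5.78% were higher without overlap in the same comparison and 13.8% did not overlap in either direction. The limma fit over all regions gave LDHB a log2 difference of 0.15 (SE 0.07, adjusted p = 0.251), which did not pass.

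MDH1 had 124.5 and 121.4 RPKM in transgenic cells with NAEK and 114 and 135 RPKM without it, against 116 and 117 RPKM in HEK293T cells with NAEK and 116 and 113 RPKM without it. Its lines overlapped (exact permutation p = 0.114, two-sided). MTCH2, a protein of the outer mitochondrial membrane, had 68.6 and 65.1 RPKM in transgenic cells with NAEK and 65.0 and 63.0 RPKM without it, against 70.3 and 63.6 RPKM in HEK293T cells with NAEK and 69.0 and 61.8 RPKM without it. AGO1 had 6.28 and 6.16 RPKM in transgenic cells with NAEK and 6.10 and 5.80 RPKM without it, against 5.06 and 6.36 RPKM in HEK293T cells with NAEK and 5.72 and 7.29 RPKM without it. The lines overlapped in both genes (exact permutation p = 0.771 for MTCH2 and 0.943 for AGO1, two-sided).

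**Figure D1:**
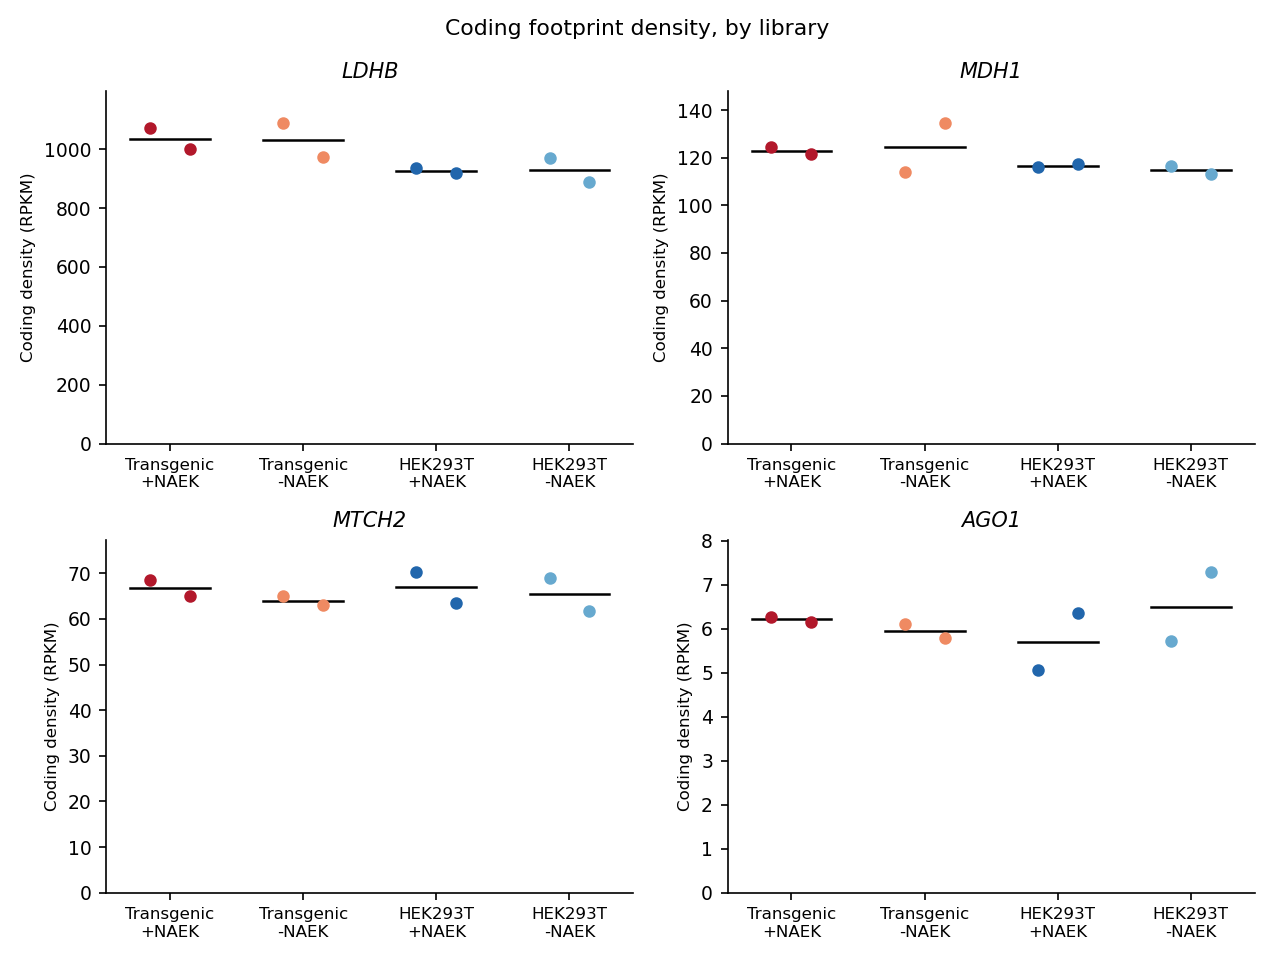
Coding footprint density in RPKM (y axis, from 0) of each gene in each library, with 1 point per library and a bar at the mean of each group of 2. LDHB lies at 974 to 1090 RPKM in transgenic and 889 to 970 RPKM in HEK293T libraries, and in the other genes the lines overlap.

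With limma and Benjamini-Hochberg adjustment, 0 of the 4 coding regions passed in any contrast. Among all coding regions, 0.0% were called for NAEK in transgenic cells and 0.0% for NAEK in HEK293T cells, 0.013% for the line difference with NAEK and 0.0065% for that without NAEK. The interaction called 0.0%, and the line difference over both NAEK states together 1.82%. The estimates for NAEK in transgenic cells were small, with log2 differences of 0.01 for LDHB, -0.01 for MDH1, 0.06 for MTCH2 and 0.06 for AGO1 (adjusted p of at least 0.971). Their 95% intervals ran from -0.21 to 0.22 for LDHB, -0.24 to 0.22 for MDH1, -0.17 to 0.29 for MTCH2 and -0.31 to 0.42 for AGO1.

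Beyond the stop codon, LDHB, MDH1 and MTCH2 carried footprints in all 8 libraries. Over all libraries the first extended region held 281 reads in LDHB, 112 in MDH1 and 38 in MTCH2, beside 135438, 16541 and 8269 reads in their coding regions. The density there, as a percent of the coding density of the same transcript and library, averaged 9.83 ± 2.15% in LDHB, 12.18 ± 4.62% in MDH1 and 12.73 ± 4.37% in MTCH2 (SD, n = 8). The means of MDH1 and MTCH2 lay within either SD of each other. That of LDHB was lower than both, by more than its own SD but less than theirs, although coding density differed greatly between the genes.

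LDHB had first extended densities of 9.81 and 5.53% in transgenic cells with NAEK and 7.79 and 10.38% without it, against 11.62 and 10.88% in HEK293T cells with NAEK and 10.81 and 11.84% without it. The lowest value, in transgenic cells with NAEK, rested on 15 reads (95% Clopper-Pearson interval 3.10 to 9.13%), and the other libraries held 31 to 47 reads. All 4 transgenic libraries were below all 4 HEK293T libraries. Such intervals allow for counting error alone, and PCR copies of 1 molecule would make them too narrow.

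MDH1 had 4.91 and 15.65% in transgenic cells with NAEK and 9.74 and 9.22% without it, against 13.97 and 20.30% in HEK293T cells with NAEK and 11.34 and 12.32% without it. These came from 6 and 14, 11 and 13, 19 and 22, and 13 and 14 reads, in the same order. The lowest and the second highest MDH1 value thus stood in the same group, transgenic cells with NAEK, and their intervals (1.80 to 10.71% and 8.54 to 26.3%) overlapped.

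MTCH2 had 15.40 and 7.21% in transgenic cells with NAEK and 10.73 and 15.70% without it, against 8.38 and 20.60% in HEK293T cells with NAEK and 12.71 and 11.12% without it. Each value rested on 2 to 7 reads, and the groups overlapped throughout. Summed over libraries, the density was 12.66% of coding density in transgenic cells (95% interval 7.49 to 20.03%) and 12.74% in HEK293T cells (7.77 to 19.7%).

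AGO1 was too thinly covered to show readthrough of this size in a single library. Its first extended region held 0 reads in all 4 transgenic libraries, against 1 and 0 reads in HEK293T cells with NAEK and 0 and 4 reads in HEK293T cells without it. Read as densities, the HEK293T libraries with reads stood at 9.42 and 30.5% of coding density, with intervals of 0.237 to 52.9% and 8.26 to 78.8%. A count of 0 allowed up to 3 reads, which is 27.2 to 36.9% of coding density per transgenic library and 7.35% over the 4 together. With 1030 coding reads in transgenic and 1118 in HEK293T libraries, the summed densities of 0% (interval up to 9.05%) and 11.3% (3.66 to 26.4%) had overlapping intervals, and libraries at 0 occurred in both lines (exact permutation p = 0.429, two-sided).

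**Figure D2:**
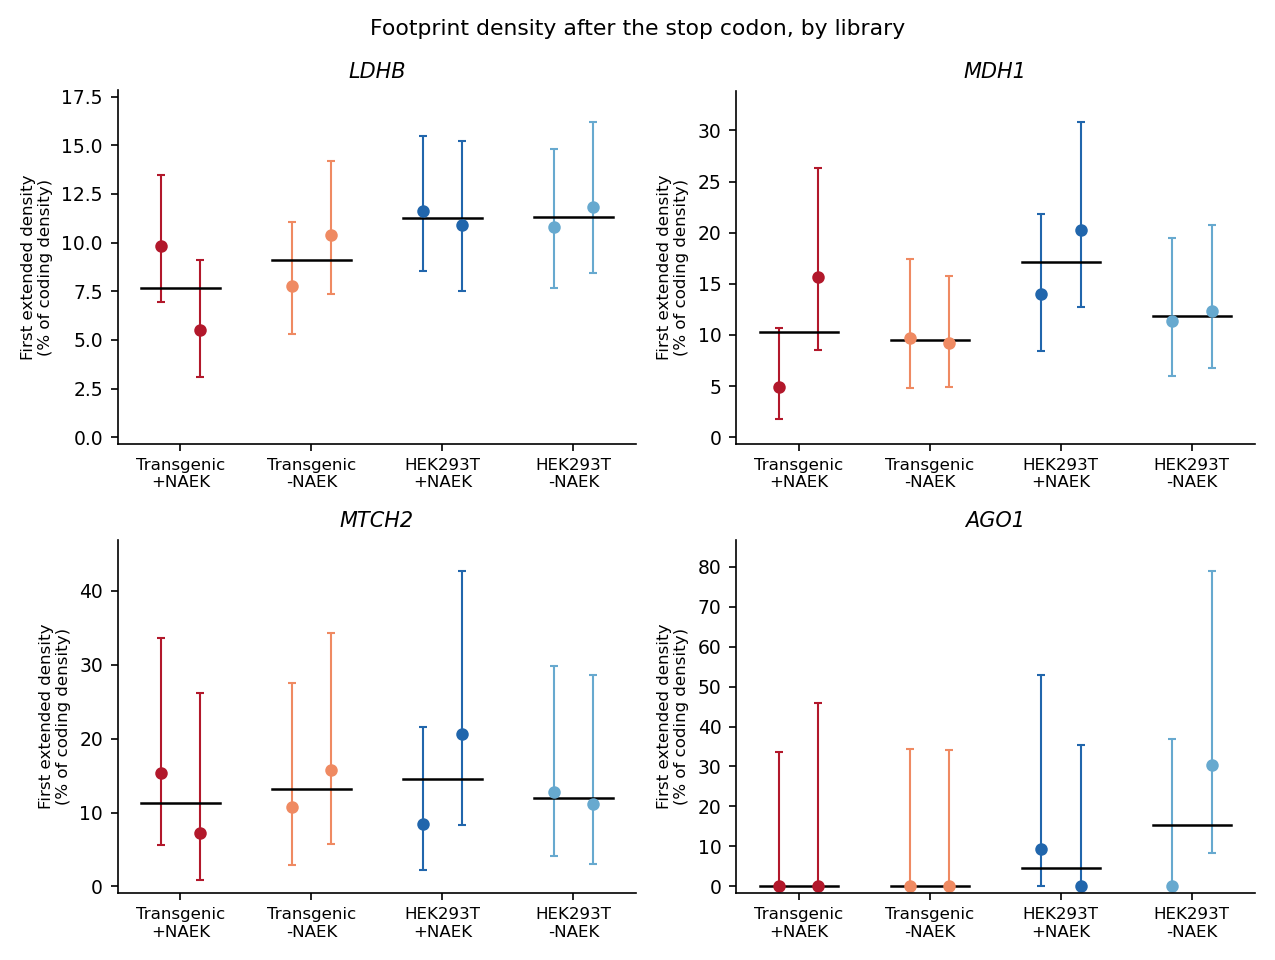
First extended density as a percent of coding density (y axis) by library, with 95% Clopper-Pearson intervals for counting error and a bar at each group mean. In LDHB all transgenic points (5.53 to 10.38%) lie below all HEK293T points (10.81 to 11.84%), whereas in MDH1, MTCH2 and AGO1 the lines overlap.

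Footprints thinned out after the next stop codon in each of the 3 genes with enough reads. The second extended region held 49 reads in LDHB, 9 in MDH1 and 9 in MTCH2 over all libraries, and second extended density averaged 0.946 ± 0.5004%, 1.16 ± 1.04% and 1.304 ± 1.37% of coding density (SD, n = 8). It was listed at 0 in 3 libraries of MDH1 and 3 of MTCH2, and in LDHB it ran from 0.327 to 1.79%. In every library of these 3 genes the first extended region was the denser.

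Per length and summed over libraries, the first extended region was 10.65-fold denser than the second in LDHB (95% interval 7.84 to 14.7), 9.82-fold in MDH1 (4.99 to 22.0) and 9.60-fold in MTCH2 (4.56 to 22.6). On the log2(RPKM + 1) scale, limma put the difference at 3.36 (SE 0.27, adjusted p = 6.45e-05) in LDHB, 2.82 (SE 0.30, adjusted p = 0.000259) in MDH1 and 2.43 (SE 0.21, adjusted p = 9.95e-05) in MTCH2. Thus 3 of 3 genes tested passed with the first region higher, and AGO1, with 5 reads against a minimum of 10, was not tested. The same call was made for 59.3% of the 9405 transcripts tested, whose median log2 difference was 0.97. With pseudocounts of 0.1 and 5 the difference was 4.28 and 1.58 in MDH1 and 3.999 and 1.18 in MTCH2, and it still passed.

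**Figure D3:**
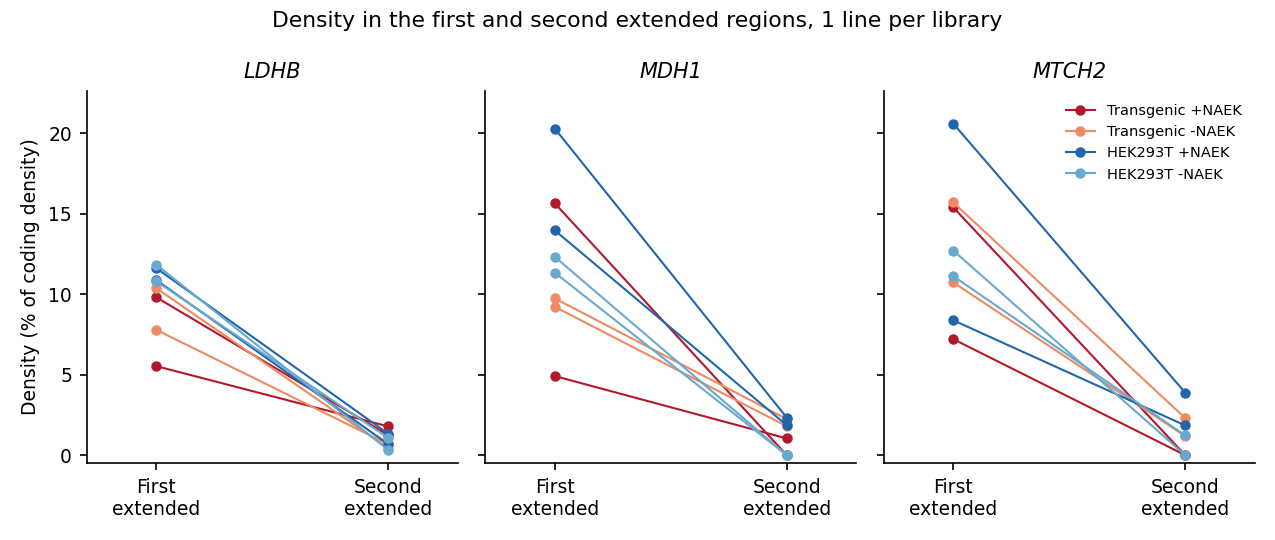
Density in the first and the second extended region as a percent of coding density (y axis), with 1 line per library coloured by group. Every line falls: first extended values run from 4.91 to 20.6%, and second extended values from 0 to 3.88%.

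Set against other well-covered transcripts, the 3 genes stood above the middle but not at the extreme. Among 2984 protein-coding transcripts averaging 1000 coding reads or more, the median first extended density was 2.24% of coding density. A density at or above that of the gene was found in 14.6% of them for MTCH2, 15.1% for MDH1 and 17.9% for LDHB. The median second extended density of these transcripts was 0.0479%, with transcripts without reads there counted as 0. In that region, too, the 3 genes were above the median, at 0.946% in LDHB, 1.16% in MDH1 and 1.304% in MTCH2.

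Among regions with reads, the level after the stop codon was lower in longer ones. Transcripts with first extended regions of up to 30 nt had a median of 7.29% (n = 909), those of 31 to 60 nt 2.40% (n = 681), those of 61 to 120 nt 1.92% (n = 664), those over 120 and up to 240 nt 1.15% (n = 388) and those over 240 nt 0.648% (n = 87). A further 255 transcripts had no reads in the region, so their length could not be recovered, and the classes and the ranks within them leave them out. Since 1 read is a higher density in a shorter region, this can raise the short classes most, by an amount that was not tested. All recovered lengths are shortest fits. LDHB, with its short region, was near the middle of its class, since 40.9% of that class were at or above it. MDH1 and MTCH2 stood higher among regions of like length, with 9.69 and 8.66% of the class of 31 to 60 nt at or above them. AGO1 averaged 4.99%, a level that 20.03% of the class of 61 to 120 nt reached, but it lacks the 1000 coding reads that this class required. The ranks are descriptions, since transcripts of 1 gene share reads.

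**Figure D4:**
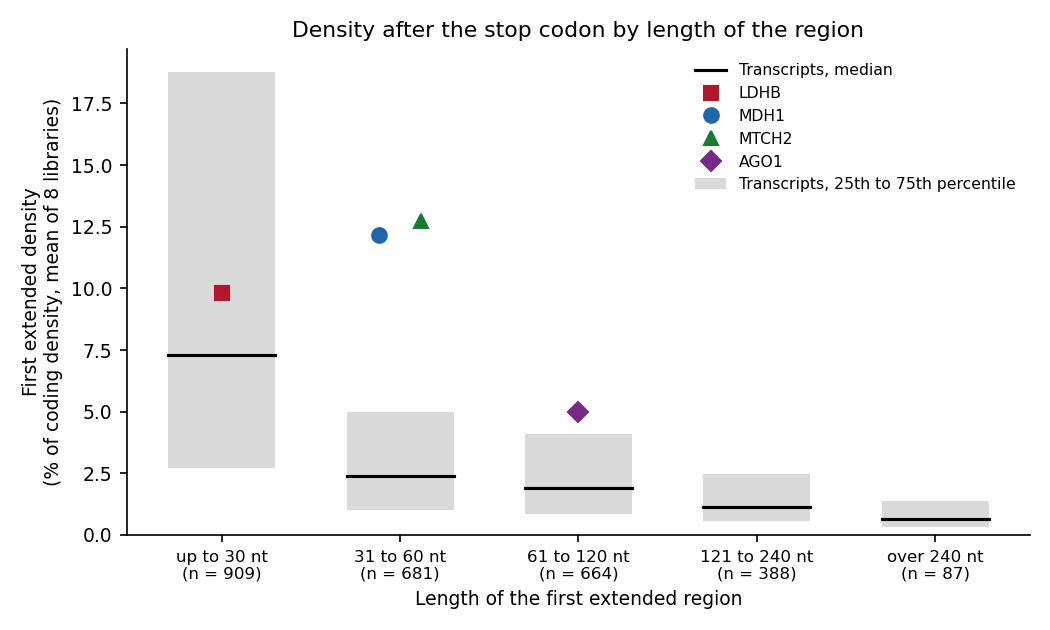
First extended density as a percent of coding density (y axis, mean of 8 libraries) for 5 classes of first extended length (x axis, nt), with grey boxes from the 25th to the 75th percentile, bars at the median and symbols for the 4 genes. LDHB lies inside the box of its class, and MDH1 (12.18%) and MTCH2 (12.73%) lie above the box of theirs.

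Pooled over lines, differences in density after these stop codons with NAEK were within the spread between libraries. In HEK293T cells alone, both MDH1 libraries with NAEK (13.97 and 20.30%) were above both without it (11.34 and 12.32%). These are 2 against 2 libraries, too few for the exact test, and the limma fit below did not call the difference. The share of all transcripts that separate in this way was not counted. In the other genes, and for MDH1 in transgenic cells, the NAEK states overlapped within each line. With both lines together, first extended density averaged 9.46 ± 2.72% with NAEK and 10.20 ± 1.72% without it in LDHB (exact permutation p = 0.657), and 13.71 ± 6.45% with and 10.66 ± 1.43% without it in MDH1 (exact permutation p = 0.429). MTCH2 averaged 12.90 ± 6.28% with and 12.57 ± 2.26% without NAEK (exact permutation p = 0.943), and AGO1 2.35 ± 4.71% with and 7.62 ± 15.25% without it (exact permutation p = 1.0; SD, n = 4 each, all two-sided). In first extended density 0 of the 4 genes separated without overlap by NAEK state, against 2.88% of the transcripts tested, and in coding density likewise 0 of 4, against 2.19% of regions. Without replicate 1 of transgenic cells with NAEK, the library with the lowest MDH1 value, MDH1 was higher with NAEK without overlap. For that run, too, no share of all transcripts was counted. In all, 16 such exact permutation tests were run, over the 4 genes, both comparisons (NAEK states and lines) and both readouts (first extended percent and coding RPKM). Their p-values are unadjusted.

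In transgenic cells the log2 difference with NAEK in the ratio of first extended to coding density was -0.28 for LDHB (95% interval -1.34 to 0.77, limma adjusted p = 0.911). It was -0.08 for MDH1 (-1.43 to 1.26, adjusted p = 0.987) and -0.26 for MTCH2 (-1.60 to 1.08, adjusted p = 0.942). In the same fit the ratio of the amber reporter GFP39 differed by 2.45 (1.34 to 3.56, adjusted p = 0.0817), from 20.94 and 19.1% with NAEK and 3.86 and 3.42% without it. The GFP39 interval lay above those of the 3 genes, but for this ratio neither it nor they passed, and the difference between GFP39 and a gene was not tested. The intervals of MDH1 and MTCH2 hold both log2 differences of 1 and -1, and that of LDHB holds -1, so differences of those sizes lie within the error of these libraries.

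In HEK293T cells the same difference with NAEK was -0.01 for LDHB (95% interval -1.06 to 1.05), 0.48 for MDH1 (-0.87 to 1.83) and 0.14 for MTCH2 (-1.20 to 1.47), each with a limma adjusted p of 0.998. The interaction of line and NAEK was -0.27 for LDHB, -0.56 for MDH1 and -0.40 for MTCH2 (limma adjusted p of 0.971, 0.942 and 0.968). Thus 0 of the 3 genes tested passed for the ratio in these contrasts, where 0.0128% of 7799 ratios were called for NAEK in transgenic cells, 0.0% for NAEK in HEK293T cells and 0.0% for the interaction.

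Between the lines, LDHB was the gene whose libraries separated. Its first extended density averaged 8.38 ± 2.20% in transgenic cells and 11.29 ± 0.523% in HEK293T cells (SD, n = 4 each), a difference of -2.91 percentage points (exact permutation p = 0.0286, two-sided, the smallest possible). Without any 1 of the 4 HEK293T libraries the exact permutation p was 0.0857, and the call was lost. No overlap with transgenic libraries lower was found in 3.44% of the 7799 transcripts tested, and no overlap in either direction in 5.1%. The limma fit gave the LDHB ratio a log2 difference of -0.47 over both NAEK states (95% interval -1.21 to 0.28, adjusted p = 0.625), which did not pass. Since coding density of LDHB was higher in the transgenic libraries, the denominator of the percent moved too. First extended density itself averaged 86.6 ± 22.6 RPKM in transgenic and 104.7 ± 3.64 RPKM in HEK293T cells (log2 difference -0.31, limma adjusted p = 0.609). In RPKM the lines overlapped, at 55.3 to 105.1 in transgenic and 99.95 to 108.8 in HEK293T libraries. The first extended region of LDHB thus separated only as a percent of coding density.

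A second entry with the region lengths of LDHB overlapped between the lines. ENST00000396076, which the tables used here do not name, has the same 3 region lengths and 93.0 to 96.8% of the coding reads of the LDHB entry in each library. Its first extended density was 9.48 ± 2.77% in transgenic and 11.92 ± 1.01% in HEK293T cells, with overlap (exact permutation p = 0.171, two-sided). With the reads of both entries summed, the values were 8.92 ± 2.35% and 11.59 ± 0.675% and the lines overlapped (exact permutation p = 0.0857, two-sided). The authors' rule for reads that fit several isoforms is not given here.

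For the other genes the lines overlapped. MDH1 averaged 9.88 ± 4.41% in transgenic and 14.48 ± 4.03% in HEK293T cells (exact permutation p = 0.2), and MTCH2 12.26 ± 4.06% in transgenic and 13.20 ± 5.25% in HEK293T cells (exact permutation p = 0.8, both two-sided, SD, n = 4 each). With NAEK present, the log2 difference of the ratio between transgenic and HEK293T cells was -0.60 for LDHB, -0.87 for MDH1 and -0.28 for MTCH2 (limma adjusted p of 0.627, 0.584 and 0.878). Without NAEK it was -0.33, -0.30 and 0.12, with a limma adjusted p of 0.998 for each. Again 0 of 3 passed, while 0.18% of ratios were called with NAEK, 0.0128% without it and 0.0513% over both states.

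**Figure D5:**
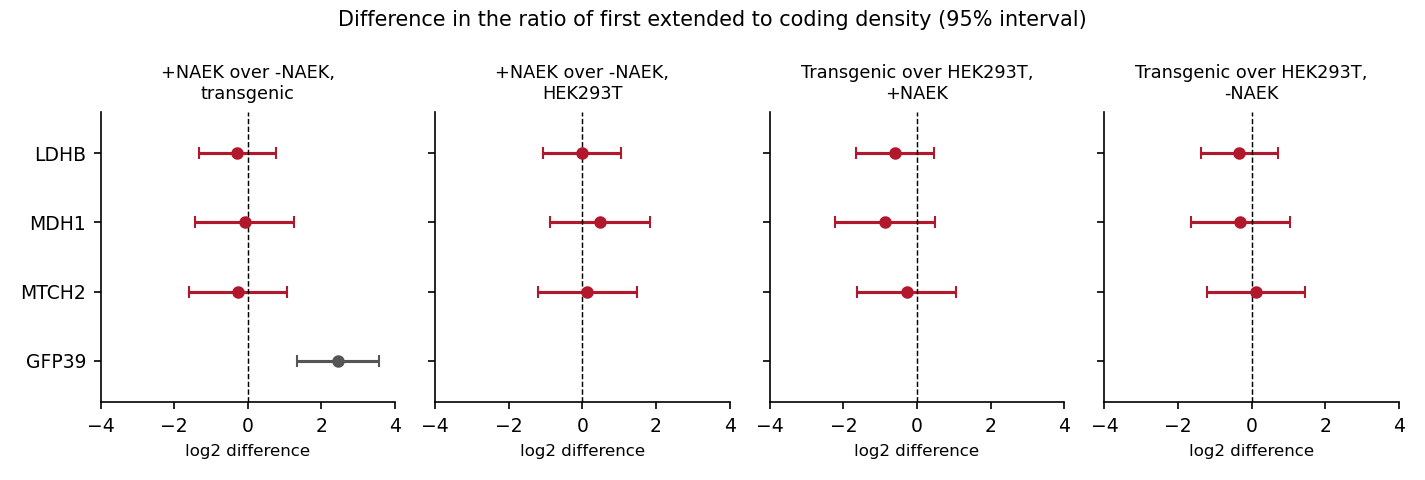
Log2 difference in the ratio of first extended to coding density with its 95% interval (x axis) for LDHB, MDH1 and MTCH2 in 4 contrasts, and for the amber reporter GFP39 in transgenic cells only, where the gene is present. All intervals of the 3 genes cross 0, and that of GFP39 runs from 1.34 to 3.56.

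First extended density on its own, not divided by coding density, also gave no call for the genes. With NAEK in transgenic cells the log2 difference was -0.28 for LDHB, -0.09 for MDH1 and -0.20 for MTCH2 (limma adjusted p of 0.844, 0.979 and 0.956). Of these, 0 of 3 passed, where 1.74% of the 7799 regions were called. The reporter GFP39 was among those called, with a log2 difference of 3.28 (limma adjusted p = 0.0223). That call was lost when any 1 of 7 of the 8 libraries was left out (limma adjusted p from 0.059 to 0.183), all but replicate 1 of transgenic cells with NAEK, while the log2 difference stayed between 3.21 and 3.35. The GFP39 call was also lost with the replicate block, without minimums and with only the libraries of the contrast (limma adjusted p of 0.0648, 0.119 and 0.156). It was kept with the other alternatives, voom on recovered reads among them (limma adjusted p = 7.36e-39). With NAEK present, transgenic against HEK293T cells gave -0.45 for LDHB, -0.79 for MDH1 and -0.28 for MTCH2 (limma adjusted p of 0.598, 0.561 and 0.87), and 0 of 3 passed, where 1.76% of regions were called. The genes also had 0 of 3 calls for NAEK in HEK293T cells (0.0% of regions called), for the lines without NAEK (0.0256%) and for the interaction (0.0%).

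Candidates for likeness were the 553 protein-coding transcripts averaging 1000 coding reads or more, with 50 or more first extended reads and some in every library. Among these, those most like each gene in first extended density over the 8 libraries were found by the mean absolute difference of log2 percents. For LDHB this was ENST00000396076, the entry of equal lengths, at a mean difference of 0.19, followed by ENST00000601655 at 0.23, with a region of 45 nt. For MDH1 it was ENST00000374515 at 0.33, with a region of 21 nt, and for MTCH2 ENST00000225698 at 0.25, with a region of 66 nt. AGO1, with 0 reads in most libraries, has no such match, and the IDs have no gene name in the tables used here.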

How the data were processed

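Per the labels, the TruSeq Ribo Profile kit was used, and the submitters' processing notes name Bowtie 1.2.2 and hg38. The authors deposited 4 tables of RPKM, 1 per group, per the file headers; annotation and read assignment among isoforms are not given here. The members and lists were chosen with earlier results of these data known. Named genes were the 4 genes, GFP39 and the most alike transcripts by a fixed distance; the paralogs and other listed genes were not analysed here, since no table used pairs transcripts with genes. Whole reads (within 0.01) and region lengths were recovered from the RPKM, with totals fixed by the synthetase entry of 1290 nt. They gave depth, intervals and minimums. limma 3.58.1 (R 4.3.3) was fitted with a variance trend to log2(RPKM + 1) of all 8 libraries, with Benjamini-Hochberg adjustment at 0.05, over 46156 coding regions with a mean of at least 1 RPKM and 7799 first extended regions (minimum of 50 coding reads on average and 10 extended reads in all). A log2 difference on this scale understates changes of low values. Contrasts over both lines or both NAEK states, the tests of coding RPKM, the test of the second entry with the region lengths of LDHB and the sum of both LDHB entries were added after seeing the data. Libraries were compared by exact permutation (70 relabelings; 2 against 2 libraries were not tested this way) with Python 3.11.15, pandas 2.3.3 and scipy 1.17.1. Steps were tested on simulated data. Alternatives changed the pseudocount, minimums, variance trend, scaling, libraries fitted, replicate block and model (voom on recovered reads).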

Additional observations from a re-analysis of the deposited data

Results flagged for a closer look

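Second extended density moved in opposite directions between groups in 2 genes, on very few reads, and neither difference was tested. In MDH1 it was 1.04 and 0% of coding density in transgenic cells with NAEK, below the 2.24 and 1.80% without it, while in HEK293T cells it was 1.86 and 2.34% with NAEK, above 0 and 0% without it. The NAEK effect in transgenic cells minus that in HEK293T cells was -3.60 percentage points. The same 4 groups also put transgenic below HEK293T libraries with NAEK and above them without it. In MTCH2 the values were 0 and 0% in transgenic cells with NAEK and 1.18 and 2.30% without it, against 1.84 and 3.88% in HEK293T cells with NAEK and 0 and 1.22% without it, a difference of -3.99 percentage points. Each library held 0 to 3 reads there. These 2 genes were named because their pairs of libraries did not overlap, and the share of all transcripts with such a pattern was not counted.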

How the results depend on the processing

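For coding density, first extended density and their ratio, 0 of the genes passed limma in any contrast under any alternative run, the replicate block among them (0 calls). The labels do not say what a replicate number marks, and the main fits and tests did not treat the numbers as pairing. Deviations of equal numbers nevertheless correlated positively, at 0.137 to 0.324 in 5 of 6 pairs of groups and at 0.048 between the transgenic groups. The replicate block is the alternative that allows for a part shared by equal numbers. The first over second extended difference passed for LDHB, MDH1 and MTCH2 under every alternative run. The exact test between lines, passed by 1 gene (LDHB), was passed by 0 to 1 when 1 library was left out, by 0 without any 1 of the 4 HEK293T libraries, by 0 with labels permuted within NAEK states, by 0 with the replicate block and by 0 for second extended density. By construction, the permutation within NAEK states (LDHB p = 0.0556) and that with the replicate block (LDHB p = 0.125) cannot reach 0.05. Without any 1 HEK293T library the LDHB exact permutation p was 0.0857, with the lines still apart, and the difference ran from -3.58 to -1.96 percentage points over the 8 libraries left out in turn. The test of NAEK, passed by 0 genes, was passed by 0 to 1 in such runs, and the 1 was MDH1 without transgenic +NAEK replicate 1. Of 1123 single-gene alternatives, 1025 kept direction and call, 90 changed the sign of a value that never passed, and 8 lost the LDHB call. That tally covers the limma fits and the LDHB exact test between lines, so the MDH1 run above is outside it. The 8 include the second entry, the sum of both entries and both permutations that cannot reach 0.05. Depth limits AGO1 to a description. A first extended region shorter than a footprint, as in LDHB, holds reads whose assignment to it depends on the position chosen within the footprint, which is not given here.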
